A study of Drosophila melanogaster with 6 samples.

Results

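RNA recovered from Drosophila melanogaster ovaries with an antibody against Bre1 was set against RNA recovered with IgG. Bre1 is the E3 ligase that, with the conjugating enzyme Ubc6 and the Paf1 complex, places ubiquitin on histone H2B at transcribed genes, and in the fly it is known for its part in Notch signalling. In the ovary, nurse cells and oocyte of each egg chamber hold maternal mRNAs, some of them localized, and somatic follicle cells around them lay down a basement membrane outside and an eggshell inside. RNA immunoprecipitation (RIP) lists the RNA that comes down with a protein and its complexes, bound directly or not, and the IgG reaction gives the RNA that comes down without a specific antibody. The series asked which noncoding RNAs associate with complexes of Lsd1 or Bre1, with the IgG reaction as the reference for each transcript. The antibody against Bre1 and IgG gave 4 of its 6 libraries.

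The Bre1 RIP group held 2 libraries and the IgG RIP group 2 libraries, 1 of each per experiment. All came from ovaries of wild type females of the Oregon-R strain within 12 hours of eclosion, about 200 animals per experiment. Each lysate was divided between the antibodies, so the libraries of 1 experiment share their animals and the pooled ovaries count as 1 sample. No tagged protein, knockout or input RNA entered these groups. A p-value below therefore rests on antibody differences between 2 lysates, and their spread may be technical. That spread was estimated over all 6 libraries and mostly from genes of like level, so it is not the gene's own.

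For every gene, the deposited FPKM (experiment 1, summed over transcripts) or RPKM (experiment 2) was scaled by the median ratio between libraries, and the log2 ratio of Bre1 over IgG was taken within each experiment after adding 1. Genes whose deposited value reached 1 in 2 or more of the 6 libraries were tested. Of 6687 tested genes, 4173 had a ratio of the same sign in both experiments: 669 were above 0 in both (10% of those tested) and 3504 were below 0 in both (52.4%). A further 2358 genes had opposite signs, 1361 of them above 0 in experiment 1, and 156 had a ratio of 0 in an experiment. Over all tested genes the median of the ratio was -0.40 in experiment 1 and -0.22 in experiment 2, so a gene at the median counts among the lower ones. Relative to these medians, 1867 genes (27.9%) were above and 1868 genes (27.9%) were below in both experiments. With the values as deposited, without scaling, the medians were -1.34 and -0.74, and 14 genes were above and 6284 below 0 in both. With quantile normalization the medians were -0.04 and 0.01, and the counts were 1890 above and 1861 below.

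The depth of the 4 libraries was uneven. Outside ribosomal RNA, the Bre1 libraries held 209234 fragments (recovered or modelled from the deposited values) and 7447852 reads, against 1444148 fragments and 8739562 reads in the IgG libraries of experiments 1 and 2. Values of at least 1 were listed for 2036 and 5485 genes in the Bre1 libraries and for 6243 and 6561 genes in the IgG libraries. The SD of the ratio over genes was 0.98 in experiment 1 and 0.41 in experiment 2, and across the 6687 genes the ratios of the experiments had a Pearson correlation of 0.21. Genes share libraries and depth, so this is a description. Nuclear ribosomal RNA took 76.2% of the exon reads in the Bre1 library of experiment 2 and 57.6% in its IgG library. Ovary markers were present: 15 of 16 germline markers and 11 of 16 markers of follicle and other somatic ovary cells were tested. Summed over the list, germline markers came to a scaled 99.5 and 259 with Bre1, against 211 and 495 with IgG. The somatic markers came to 35.9 and 28.2 with Bre1, against 20.3 and 28.6 with IgG. Both libraries of an experiment drew on 1 divided lysate and so on the same cells.

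**Figure D1:**
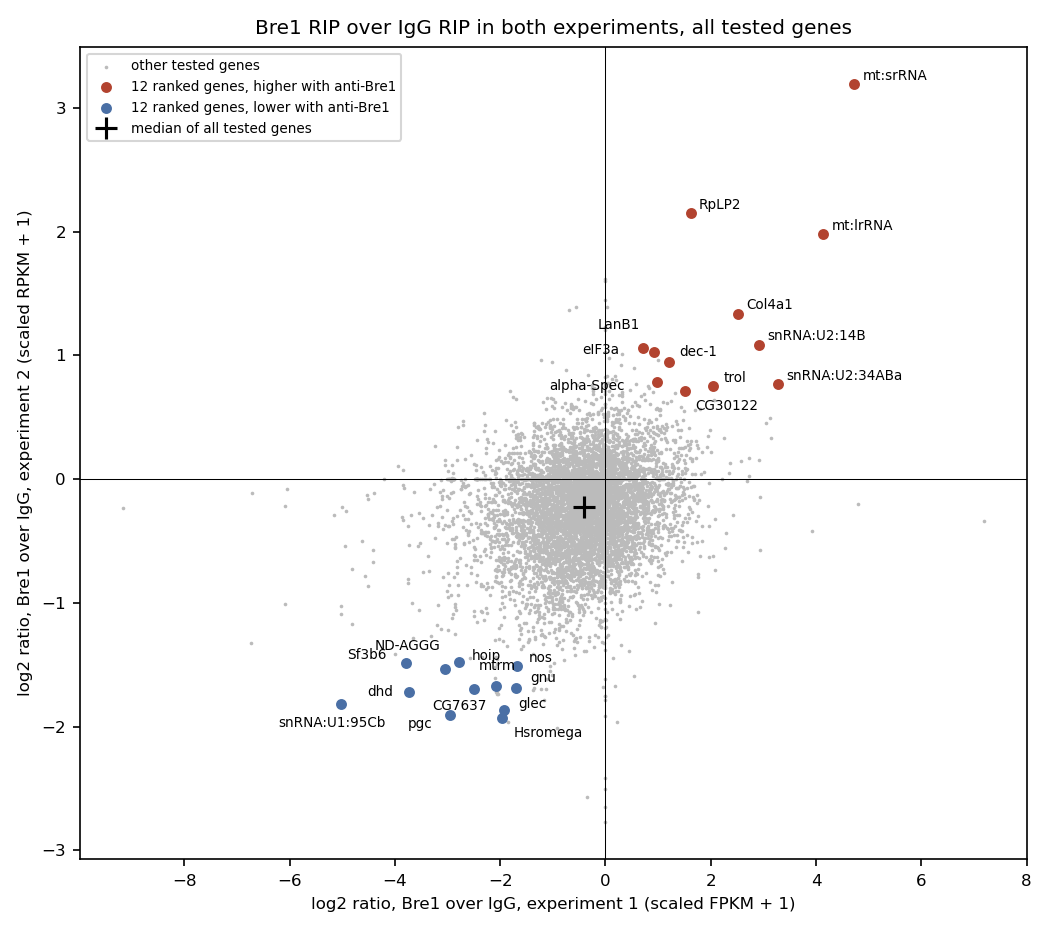
Log2 ratio of Bre1 over IgG in experiment 1 (horizontal, scaled FPKM + 1) and experiment 2 (vertical, scaled RPKM + 1), with 1 point per tested gene. The 12 genes ranked highest in both experiments are red, the 12 ranked lowest are blue, and the cross marks the median of all tested genes at -0.40 and -0.22.

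Genes were ranked within each direction by the smaller of their 2 ratios, among genes with a scaled value of at least 5 in the Bre1 or the IgG library of each experiment. The 12 genes highest in both experiments were both mitochondrial ribosomal RNAs, a ribosomal stalk protein mRNA, basement membrane and eggshell mRNAs, copies of the U2 small nuclear RNA, and mRNAs of an initiation factor and of spectrin. The 12 lowest were Hsromega, a U1 copy, mRNAs used by the oocyte or by splicing and respiratory complexes, and the mRNAs of glec and CG7637; their median exon length was 939 bases. The last gene inside the higher ranking was CG30122, with 0.71 as its smaller ratio, and the first outside was bel with 0.70. For the lower ranking, hoip stood inside with -1.48 and CG17931 outside with -1.44. Values at which genes were ranked are descriptions. None of the 24 ranked genes passed the limma test: the adjusted p was 0.367 for snRNA:U1:95Cb, 0.470 for Sf3b6, 0.786 for mt:srRNA and pgc, 0.811 for ND-AGGG and 1.00 for the rest.

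Both ribosomal RNAs of the mitochondrion were higher with Bre1 in both experiments. The RNA of the small subunit, mt:srRNA (FBgn0013688, mitochondrial genome, bases 14131 to 14916), had scaled levels of 18032 FPKM and 78.9 RPKM with Bre1, against 679 FPKM and 7.73 RPKM with IgG. Its log2 ratios were 4.73 and 3.19, and the counts behind them were 33905 fragments and 5807 reads with Bre1 against 8003 fragments and 582 reads with IgG. The large subunit RNA mt:lrRNA (FBgn0013686, bases 12734 to 14058) had 22772 FPKM and 147 RPKM with Bre1, against 1295 FPKM and 36.6 RPKM with IgG, or ratios of 4.14 and 1.98. In each experiment the Bre1 library lay above its IgG library for both RNAs, and the ratios stayed above 1 in both experiments without scaling. Of the fragments or reads outside nuclear ribosomal RNA, mitochondrial ribosomal RNA took 36.2% (95% Clopper-Pearson interval 36.0 to 36.3) with Bre1 in experiment 1 and 0.323% (0.319 to 0.327) in experiment 2. With IgG the shares were 2.57% (2.55 to 2.60) and 0.0597% (0.0581 to 0.0614). These intervals cover counting error only.

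The change of mt:srRNA fitted by limma over both experiments, each taken as a block, was 3.96 ± 1.30 (SE, n = 2 experiments), and its adjusted p over all tested genes was 0.786. Among the alternatives, its adjusted p ran between 8.79e-05, from DESeq2 on counts, and 1.00. With anti-Lsd1 against the same IgG libraries, mt:srRNA had ratios of -1.25 and -1.31 and mt:lrRNA -0.92 and 2.68. These comparisons share their IgG libraries and are not independent.

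As a whole, the RNAs of the mitochondrial genome did not share one direction. Of 37 listed, with both ribosomal RNAs included, 14 were tested. Of these, 3 (21.4%) were above 0 in both experiments and 1 (7.14%) was below, against 10% and 52.4% of all tested genes. Both ribosomal RNAs were among the 3. The third was mt:Cyt-b, for cytochrome b of respiratory complex III, with 203 FPKM and 5.75 RPKM with Bre1 against 57.3 FPKM and 3.55 RPKM with IgG (ratios 1.80 and 0.57). Its fitted change turned negative, to -0.05, without scaling and to -0.56 without Bre1 replicate 1. The lower one was mt:ND1, a complex I subunit, with 2.92 FPKM and 51.6 RPKM with Bre1 against 51.6 FPKM and 90.9 RPKM with IgG (ratios -3.75 and -0.81). The median of the 14 genes stood 1.81 above that of all tested genes in experiment 1 and 0.10 above it in experiment 2.

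Basement membrane mRNAs had ratios above 0 in both experiments for most of the list. Of 15 listed genes for basement membrane and extracellular matrix, 11 were tested, and 8 of these (72.7%) were above 0 in both experiments while 0 were below in both, against 10% and 52.4% of all tested genes. Their median stood 0.95 above the median of all tested genes in experiment 1 and 0.97 above it in experiment 2. None passed the limma test at an adjusted p under 0.05. Longer mRNAs in general were more often above 0 in both experiments. This held for 22.9% of tested protein-coding genes with 5000 to 8000 bases of exon and 26.5% of those over 8000. Below 0 in both were 24.9% and 16.1% of these genes.

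Col4a1 (FBgn0000299, 2L, 5029609 to 5037279) encodes a chain of collagen IV, the main network collagen of basement membranes. Its levels were 57.8 FPKM and 60.2 RPKM with Bre1, against 9.24 FPKM and 23.2 RPKM with IgG, which gave ratios of 2.52 and 1.34. The limma fit put its change at 1.93 ± 0.98 (SE, n = 2 experiments), with an adjusted p of 1.00 there and of 0.280 to 1.00 over the alternatives. In experiment 1 the 2 libraries held nearly equal fragment numbers for it, 1064 with Bre1 and 1101 with IgG, although the Bre1 library was the shallower one. The perlecan gene trol (FBgn0284408, X) had 35.4 FPKM and 9.82 RPKM with Bre1, against 7.80 FPKM and 5.44 RPKM with IgG (ratios 2.05 and 0.75). Both genes kept positive ratios in both experiments in the values as deposited, 0.64 and 0.71 for Col4a1 and 0.20 and 0.18 for trol.

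The 3 laminin chains lay close together. LanB1 had 6.43 FPKM and 13.3 RPKM with Bre1, against 3.50 FPKM and 5.86 RPKM with IgG (ratios 0.72 and 1.06). LanB2 had ratios of 0.55 and 0.89, and LanA 0.31 and 1.01. For all 3 the ratio was larger in experiment 2, the deeper one for Bre1, unlike that of Col4a1 and trol. The proteoglycan-like matrix protein gene Ppn (papilin) had 4.27 FPKM and 4.70 RPKM with Bre1, against 1.63 FPKM and 1.93 RPKM with IgG (ratios 1.00 and 0.96). The remaining members above 0 in both were PH4alphaEFB, a prolyl hydroxylase that acts on collagen (0.26 and 0.68), and Mp, the collagen XV and XVIII homologue (1.72 and 0.17). LanA, LanB2, PH4alphaEFB and Mp were named after their values were seen. With anti-Lsd1 over the same IgG libraries Col4a1 had 0.39 and 2.11, Ppn 0.54 and 0.74, trol 0.73 and -0.09, and LanB1 0.15 and -0.39.

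The direction of these genes depended on the scaling. Of the 11 genes, 9 were above 0 in both experiments with quantile normalization, 9 with upper quartile scaling, 7 with the trend on exon length removed and 2 with the values as deposited, when the fitted change of LanB1, LanB2, LanA and PH4alphaEFB turned negative. With the length trend removed LanA had -0.77 and LanB2 -0.07 in experiment 1. Relative to the median of all tested genes the list stayed above in both experiments under each of these settings, by 0.46 to 1.00 in experiment 1 and 0.86 to 1.15 in experiment 2. Most members are long mRNAs, and their ratio in experiment 1 moved with length as described below. Hemocytes and fat body also make basement membrane proteins. Of 11 listed hemocyte markers 9 were under 1 in all 4 libraries, and of 11 fat body markers 8 were; the 3 fat body markers that were tested are the yolk protein genes, which follicle cells also express. The part of these cells in the result was not tested.

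**Figure D2:**
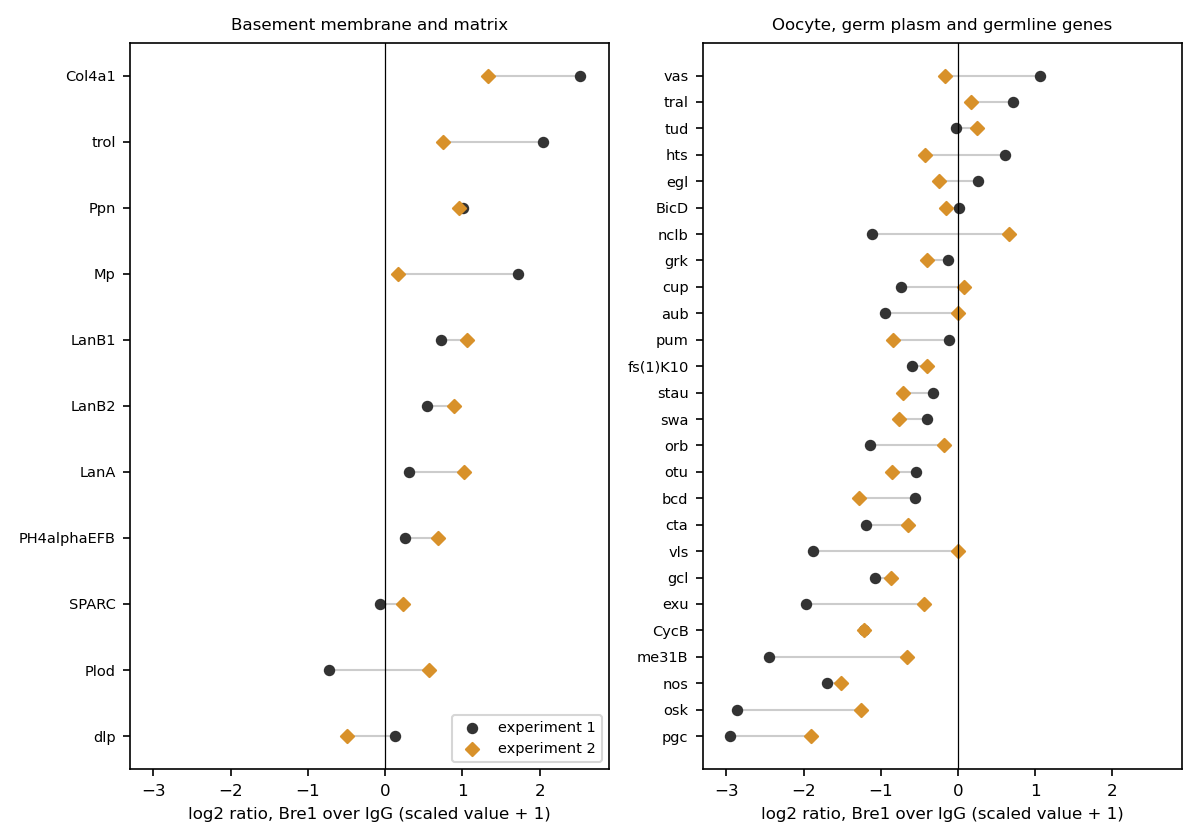
Log2 ratio of Bre1 over IgG for each tested gene of 2 lists, with circles for experiment 1 and diamonds for experiment 2. In the basement membrane list (left) 8 of 11 genes lie above 0 in both experiments, and in the list of oocyte, germ plasm and germline genes (right) 16 of 26 lie below 0 in both.

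Eggshell mRNAs were divided. Of 15 tested members of the vitelline membrane and eggshell list, 4 (26.7%) were above and 5 (33.3%) below 0 in both experiments. Of all tested genes 10% were above and 52.4% below. The chorion protein gene dec-1 (X) had 9.22 FPKM and 17.9 RPKM with Bre1, against 3.43 FPKM and 8.84 RPKM with IgG (ratios 1.21 and 0.94). The gene of the eggshell protease Nudel, ndl, had ratios of 0.82 and 0.74. Vml, a vitelline membrane-like gene, was lower in both Bre1 libraries, with 1.47 FPKM and 5.25 RPKM against 4.96 FPKM and 12.4 RPKM with IgG (ratios -1.27 and -1.10). The 2 higher genes have exon lengths of 5748 and 8230 bases and Vml has 1960. The fitted changes of dec-1 and ndl turned slightly negative, to -0.05 and -0.12, without scaling. dec-1 had 0.11 and 1.60 with anti-Lsd1 over the same IgG libraries. With the length trend removed, ndl had -0.02 in experiment 1, and 2 of the 15 genes were above 0 in both experiments and 2 below.

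RpLP2, which encodes an acidic protein of the ribosomal stalk, was the only cytoplasmic ribosomal protein mRNA with a ratio of at least 1 in both experiments. It had 1064 FPKM and 216 RPKM with Bre1, against 346 FPKM and 47.9 RPKM with IgG (ratios 1.62 and 2.15; fitted change 1.88 ± 1.51, limma adjusted p = 1.00, and between 0.432 and 1.00 over the alternatives). Without scaling the ratio of experiment 1 was -0.35. Anti-Lsd1 over the same IgG libraries gave RpLP2 -0.68 and 3.19. Of 83 tested ribosomal protein genes 4 were above and 38 (45.8%) below 0 in both experiments, against 52.4% of all tested genes below, and 27 (32.5%) were below with the length trend removed. Their median stood 1.90 below that of all tested genes in experiment 1 and 0.24 above it in experiment 2. RpL22 had ratios of 0.15 and 0.15, with the fitted change turning to -1.15 without scaling, to -0.93 without Bre1 replicate 1 and to -0.96 without IgG replicate 2. RpL39, with 288 bases of exon, had 4.76 FPKM and 19.3 RPKM with Bre1 against 391 FPKM and 39.9 RPKM with IgG, from 1 fragment against 513 in experiment 1 (ratios -6.09 and -1.01).

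Among translation factors, 5 of 39 tested genes (12.8%) were above and 12 (30.8%) were below 0 in both experiments, against 10% and 52.4% of all tested genes. The gene of the largest scaffold subunit of initiation factor 3, eIF3a, had 49.6 FPKM and 49.0 RPKM with Bre1, against 25.9 FPKM and 23.5 RPKM with IgG (ratios 0.91 and 1.03). eIF5B, the factor that joins the ribosomal subunits, had ratios of 1.32 and 0.69. eIF1, a short mRNA for a start codon recognition factor, had -2.43 and -0.78. Without scaling the fitted changes of eIF3a and eIF5B turned negative, to -0.30 and -0.22. The remaining ranked mRNAs were alpha-Spec, for the alpha spectrin of the membrane skeleton, with ratios of 0.98 and 0.79 from 189 fragments and 6088 reads with Bre1 against 528 fragments and 3274 reads with IgG, and CG30122, with 1.51 and 0.71. Both turned slightly negative without scaling (-0.18 and -0.09). Anti-Lsd1 over the same IgG libraries gave eIF3a -0.41 and 2.20, alpha-Spec 0.04 and 1.18, and CG30122 -0.05 and 0.40.

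The U2 small nuclear RNA, the spliceosomal RNA that pairs with the branch site of introns, supplied the remaining places in the higher ranking. The copy snRNA:U2:34ABa (2L, 13211925 to 13212116) had 22414 FPKM and 153 RPKM with Bre1, against 2325 FPKM and 89.3 RPKM with IgG, from 472 fragments and 2746 reads with Bre1 against 307 fragments and 1642 reads with IgG. Its ratios were 3.27 and 0.77. Of its reads in experiment 2, 1081 with Bre1 and 830 with IgG mapped uniquely. Another copy, snRNA:U2:14B (X), had ratios of 2.91 and 1.09, but on unique reads, 2 with Bre1 and 14 with IgG, its log2 ratio in experiment 2 was -2.58. With anti-Lsd1 over the same IgG libraries, snRNA:U2:34ABa had 1.14 and 0.84 and snRNA:U2:14B 1.11 and 0.85, also above 0 in both experiments. The copies are near-identical, so a level given to 1 of them is uncertain. Of 24 tested small nuclear RNAs 6 (25%) were above and 5 (20.8%) below 0 in both experiments, against 10% and 52.4% of all tested genes. In experiment 1, 12 of the 24 were listed at 0 in both the Bre1 and the IgG library.

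**Figure D3:**
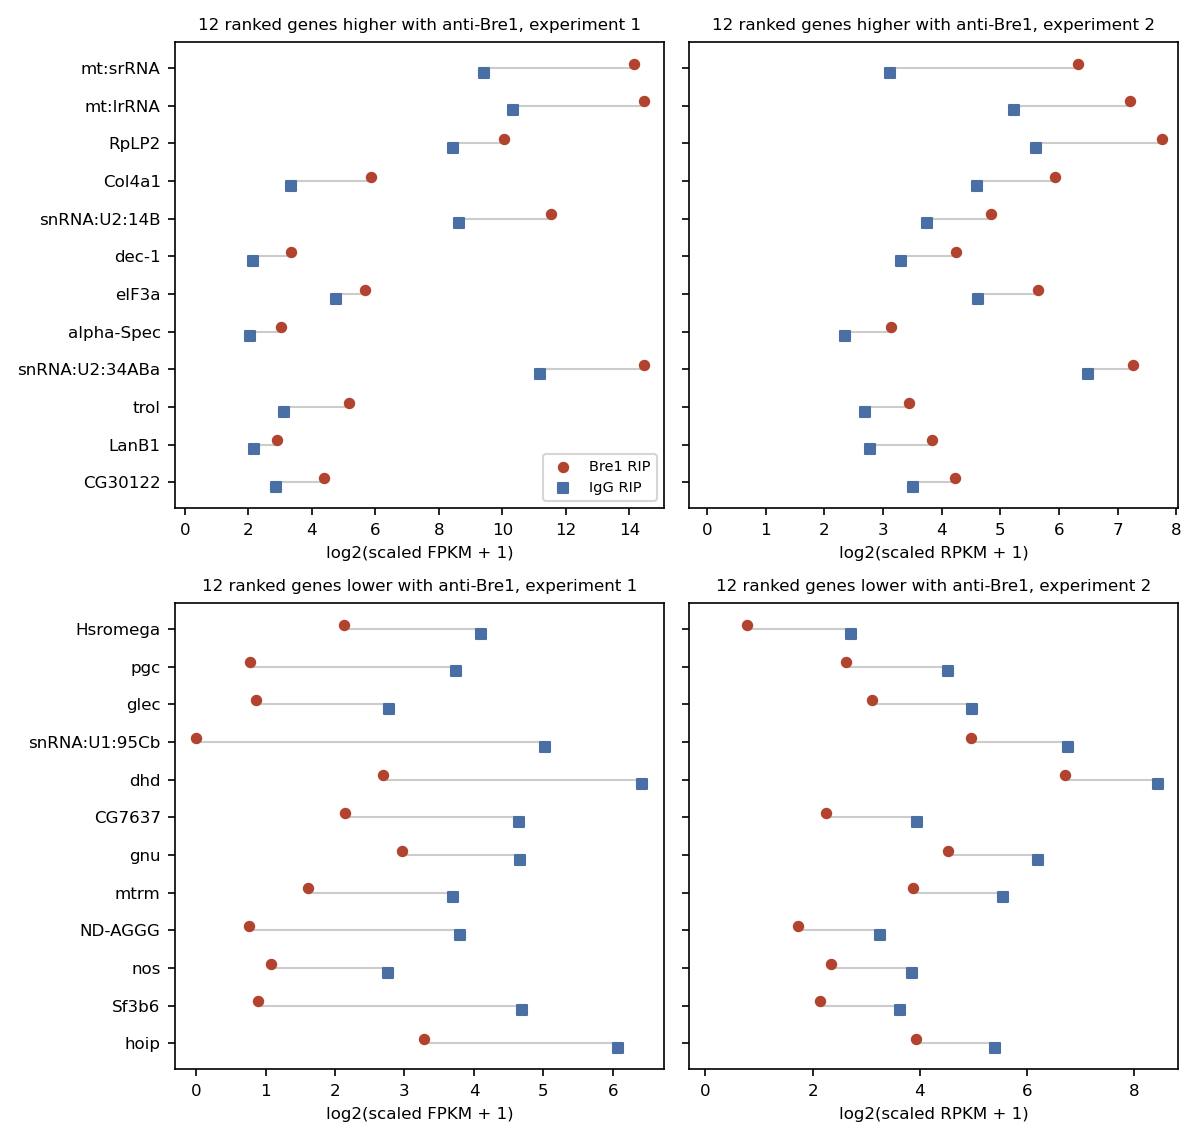
Level of the 12 genes ranked highest (top) and the 12 ranked lowest (bottom) in experiment 1 (left, log2 of scaled FPKM + 1) and experiment 2 (right, log2 of scaled RPKM + 1). Circles are Bre1 RIP and squares IgG RIP, 1 library each, so the bar between them is the log2 ratio.

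The genes lowest with Bre1 were led by Hsromega (FBgn0001234, 3R, 21296127 to 21317836), the nuclear noncoding RNA that collects RNA-binding proteins in omega speckles. Its levels were 3.36 FPKM and 0.717 RPKM with Bre1, against 16.1 FPKM and 5.55 RPKM with IgG. The counts were 61 fragments and 1457 reads with Bre1, against 2162 fragments and 11543 reads with IgG. The ratios were -1.98 and -1.93. The limma fit put the change at -1.95 ± 0.75 (SE, n = 2 experiments), with an adjusted p of 1.00 there and of 0.131 to 1.00 over the alternatives. It is the longest of the 12 lowest genes, with 21710 bases of exon against a median of 939. Anti-Lsd1 over the same IgG libraries gave Hsromega 0.08 and -2.57.

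Among the 12 lowest genes were pgc and nos, of the oocyte and germ plasm list, and dhd, gnu and mtrm, which are in no list and are set beside them here after the ranking was seen. The germ plasm gene pgc encodes a product that keeps transcription off in the primordial germ cells. It had 0.717 FPKM and 5.15 RPKM with Bre1, against 12.3 FPKM and 22.1 RPKM with IgG (ratios -2.96 and -1.91). The Bre1 level of pgc in experiment 1 rests on 1 modelled fragment, against 118 with IgG. The translational repressor nos had 1.11 FPKM and 4.09 RPKM with Bre1, against 5.81 FPKM and 13.5 RPKM with IgG (ratios -1.69 and -1.51). Both are mRNAs of the posterior pole of the oocyte.

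The oocyte thioredoxin gene dhd had 5.46 FPKM and 104 RPKM with Bre1, against 84.4 FPKM and 347 RPKM with IgG (ratios -3.73 and -1.72). gnu, an activator of the Pan gu kinase at egg activation, had 6.82 FPKM and 22.0 RPKM with Bre1, against 24.4 FPKM and 73.2 RPKM with IgG (ratios -1.70 and -1.69). mtrm, an inhibitor of Polo kinase in oocyte meiosis, had ratios of -2.09 and -1.67, although its 1404 reads with Bre1 and 4811 with IgG in experiment 2 held 0 unique ones. The adjusted p of these 5 genes in limma was 0.786 for pgc and 1.00 for the other four. Over the alternatives it ran between 0.00528 and 1.00 for dhd, whose fitted change became 0.06 when Bre1 replicate 1 was left out, and between 0.0137 and 1.00 for pgc.

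As a list, oocyte, germ plasm and germline genes were lower in part. Of 26 tested members 16 (61.5%) were below 0 in both experiments, against 52.4% of all tested genes, a share not far from the background. Their median stood 0.27 and 0.21 below that of all tested genes in experiments 1 and 2. Below -1 in both were pgc, nos, osk and CycB, 4 of 26 genes, against 1.94% of all tested genes. osk, which builds the germ plasm, had 10.3 FPKM and 75.7 RPKM with Bre1, against 80.7 FPKM and 181 RPKM with IgG, from 92 fragments against 4528 in experiment 1 (ratios -2.86 and -1.25). Its fitted change was 0.20 without Bre1 replicate 1. The mitotic cyclin CycB, named after its values were seen, had 17.1 FPKM and 65.8 RPKM with Bre1, against 41.2 FPKM and 154 RPKM with IgG (ratios -1.22 and -1.22). The other 22 genes included tral, a component of germline RNA granules, at 0.71 and 0.17, and its fitted change turned to -0.84 without scaling. With the trend on exon length removed, 4 of the 26 were again below -1 in both experiments, with quantile normalization 3 and with upper quartile scaling 2.

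Values with anti-Lsd1 against the same IgG libraries stand beside these. pgc had 0.19 and -4.53, nos 0.72 and -2.71, dhd 0.60 and -6.31, and osk 0.45 and -5.13 in experiments 1 and 2. gnu had 0.53 and -3.42, and mtrm 0.38 and -4.06. In experiment 2 these mRNAs were thus lower with both antibodies than with the IgG library they share, and in experiment 1 with anti-Bre1 alone. In experiment 1 the Bre1 library was the shallowest of the 3 libraries, and in experiment 2 the Lsd1 library was. In the limma fit the change of Bre1 over Lsd1 was -0.26 for pgc, -0.60 for nos and 0.13 for dhd. The unadjusted p of this contrast in limma was 0.743, 0.431 and 0.909, so no difference between the antibodies was called for them.

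The other ranked mRNAs belong to splicing and respiration or have no shared role. Sf3b6 encodes a subunit of the SF3b complex of the U2 particle. It had 0.856 FPKM and 3.41 RPKM with Bre1, against 24.8 FPKM and 11.4 RPKM with IgG (ratios -3.80 and -1.49). Its Bre1 level in experiment 1 rests on 2 fragments, against 363 with IgG. hoip, a protein of box C/D and U4 particles, had ratios of -2.79 and -1.48. ND-AGGG, a subunit of respiratory complex I, had -3.05 and -1.53, from a modelled 0.494 fragments with Bre1 against 66.5 with IgG in experiment 1. The remaining ones were glec (gliolectin), with -1.93 and -1.87, and CG7637, with -2.50 and -1.70. In experiment 1 glec had 5 fragments with Bre1 against 228 with IgG, and CG7637 had 1 against 44. Anti-Lsd1 over the same IgG libraries gave Sf3b6 -0.48 and -2.36, hoip 0.01 and -3.67, and ND-AGGG -0.10 and -3.15. For glec it gave 0.61 and -2.93, and for CG7637 -0.59 and -3.51. Of the nuclear genes of oxidative phosphorylation 47 of 65 (72.3%) were below 0 in both experiments and 2 above, ND-75 among these with 0.68 and 0.67. Of mitochondrial ribosomal protein genes 56 of 73 (76.7%) were below and 1, mRpS31, above with 0.20 and 0.17. Of all tested genes 52.4% were below. With the trend on exon length removed the shares were 53.8% (35 of 65) and 58.9% (43 of 73), against 53.7% of all tested genes. ND-75 and mRpS31 turned negative without scaling, and mRpS31 also without Bre1 replicate 1 (-0.12) or IgG replicate 2 (-0.10). Both lists stood below the median of all tested genes in experiment 1, by 1.19 and 0.96, or by 0.69 and 0.38 with the length trend removed, and nearer to it in experiment 2. Short mRNAs stood among the lowest members: ND-MLRQ, of 538 bases, had -4.81 and -1.17, and mRpS18A, of 581 bases, had -2.85 and -1.06.

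Small nucleolar RNAs supplied the 2 calls of the limma fit. In limma 0 genes were higher (0.0% of 6687) and 2 were lower (0.0299%) at an adjusted p under 0.05, while 7 higher and 253 lower genes had an unadjusted p under 0.05. On counts edgeR called 0 genes and DESeq2 called 1, mt:srRNA. Leaving out Bre1 replicate 2 gave 50 calls, 4 higher and 46 lower, and leaving out IgG replicate 1 or Bre1 replicate 1 gave 0. The first call was snoRNA:Tudor-SN-a (FBgn0263470, 3L, 259970 to 260280), with 0 FPKM and 2.13 RPKM with Bre1, against 105 FPKM and 6.82 RPKM with IgG. It had 0 fragments and 62 reads with Bre1, against 183 fragments and 203 reads with IgG, and none of these reads was unique. Its ratios were -6.73 and -1.32 and limma put its change at -4.03 ± 0.87 (SE, n = 2 experiments), with an adjusted p of 0.0310, and of 2.28e-07 to 1.00 over the alternatives. With 0 fragments the first ratio depends on the added 1. With anti-Lsd1 over the same IgG libraries snoRNA:Tudor-SN-a had 0.36 and -0.40.

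The second was snoRNA:Psi18S-531 (FBgn0083027, X, 763083 to 763234), a guide of pseudouridine in 18S ribosomal RNA by its name. It lies within RpL22. It had 0 FPKM and 1.55 RPKM with Bre1, against 569 FPKM and 1.99 RPKM with IgG, or ratios of -9.16 and -0.23. The fitted change was -4.69 ± 0.87 (limma adjusted p = 0.00242, and between 6.58e-10 and 1.00 over the alternatives). The level in the IgG library of experiment 1 rests on 1 fragment, and none of its 22 reads with Bre1 and 29 with IgG was unique. Its fitted change was 0.25 with DESeq2 on counts. With anti-Lsd1 over the same IgG libraries snoRNA:Psi18S-531 had -9.16 and -0.06. The calls of both RNAs were lost without the block and with only the 4 Bre1 and IgG libraries. They were also lost when IgG replicate 1 or Bre1 replicate 1 was left out. The fitted changes were then -2.82 and -1.13 for snoRNA:Tudor-SN-a and -0.19 and -2.57 for snoRNA:Psi18S-531. Leaving out Lsd1 replicate 1 or 2, libraries outside this comparison, lost both calls too. The fitted changes were then -3.92 and -4.14 for snoRNA:Tudor-SN-a and -4.60 and -4.80 for snoRNA:Psi18S-531.

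Other noncoding RNAs were higher, lower or divided. Of 94 tested genes of the class ncRNA, 12 were above and 42 below 0 in both experiments. Of all tested genes 10% were above and 52.4% below. The 7SK RNA (snRNA:7SK), part of the particle that sequesters P-TEFb, had 885 FPKM and 197 RPKM with Bre1, against 462 FPKM and 159 RPKM with IgG (ratios 0.94 and 0.31). Its fitted change turned negative with quantile normalization (-0.11), without scaling (-0.69) and without Bre1 replicate 1 (-0.40). The RNA of RNase MRP (RNaseMRP:RNA), which cuts precursor ribosomal RNA, was level in experiment 1, with 335 FPKM with Bre1 and 329 FPKM with IgG, and higher in experiment 2, with 208 RPKM against 78.7 RPKM (ratios 0.03 and 1.39). Its fitted change was negative without scaling (-0.59) and without IgG replicate 2 (-0.67). CR40469 was lower, with ratios of -3.54 and -1.06, from 1 fragment against 76 in experiment 1. The U1 copy snRNA:U1:95Cb had ratios of -5.03 and -1.82, with no unique reads in experiment 2. Its level with IgG in experiment 1 rests on a modelled 0.583 fragments, against 0 with Bre1. Anti-Lsd1 over the same IgG libraries gave this copy -5.03 and 1.20. Of 61 tested snoRNAs, 2 (3.28%) were above and 5 (8.20%) below 0 in both, and 52 had a ratio of 0 in experiment 1.

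The genes of Bre1's own pathway showed no common direction. The Bre1 transcript (FBgn0086694, 3L) had 5.45 FPKM and 7.49 RPKM with Bre1, against 2.01 FPKM and 8.89 RPKM with IgG (ratios 1.10 and -0.22), so the experiments disagreed, and its fitted change was negative without scaling (-0.61) and without IgG replicate 1 (-0.29). Of 15 tested genes for H2B ubiquitination, the Paf1 complex and H2B deubiquitinases, 1 was above and 7 were below 0 in both experiments. These shares, 6.67% and 46.7%, were near the 10% and 52.4% of all tested genes. The one above was Ctr9, of the Paf1 complex, with 0.31 and 0.62, negative without scaling (-0.54). Ubc6 was the lowest, with 0.323 FPKM and 1.46 RPKM with Bre1 against 5.56 FPKM and 4.42 RPKM with IgG (ratios -2.31 and -1.14). Its Bre1 level in experiment 1 rests on 1 modelled fragment, against 127 with IgG. Rtf1, the Paf1 complex member that connects it to H2B ubiquitination, had -0.00 and -0.67, and its fitted change was 0.01 without Bre1 replicate 2 and with edgeR.

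Of 19 tested Notch pathway genes, 1 was above and 5 were below 0 in both experiments (5.26% and 26.3%, against 10% and 52.4% of all tested genes). The receptor gene N had 6.83 FPKM and 7.09 RPKM with Bre1, against 2.33 FPKM and 8.04 RPKM with IgG (ratios 1.23 and -0.16). The ligand gene Dl had ratios of 0.09 and -0.62, and its fitted change was positive with quantile normalization (0.02) and upper quartile scaling (0.06), and without IgG replicate 2 (0.36). mib1, a ligase for Notch ligands, was the one above 0, with 0.14 and 0.33, and the transcription factor gene Su(H) had -0.44 and -0.85. Without scaling N and mib1 turned negative (-0.54 and -0.62), and N also without IgG replicate 1 (-0.33). With the length trend removed, 0 of the 19 genes were above and 11 (57.9%) below 0 in both experiments, against 53.7% of all tested genes below.

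Further lists were measured in the same way, against 10% of all tested genes above and 52.4% below 0 in both experiments. Replication-dependent histone genes had 0 of 111 above and 45 (40.5%) below 0 in both experiments, 12 of them below -1; their copies share sequence, and His2A:CG33841 (ratios -2.05 and -1.74) had no unique reads. Among heat shock proteins and chaperones 5 of 21 were above and 3 below, with Hsp70Ab, a near-identical copy that had 0 unique reads with Bre1 and 2 with IgG, at 0.58 and 0.40, negative without scaling, and DnaJ-1 at -0.54 and -1.0. Among proteasome subunits 2 of 33 were above and 12 below, with Rpn2 at 0.61 and 0.60, negative without scaling, and Prosbeta4 at -2.22 and -0.87. In the secretory pathway 3 of 21 were above and 8 below. Tango1, which carries collagen out of the endoplasmic reticulum, had 0.91 and 0.24, negative without scaling, and Sec61gamma had -2.45 and -0.83. The yolk receptor gene yl had 1.26 and 0.05, also negative without scaling. Of 29 tested piRNA pathway genes 0 were above and 17 (58.6%) below, the lowest being CG13741 at -1.10 and -1.05, whose fitted change was 0.08 without Bre1 replicate 1.

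**Figure D4:**
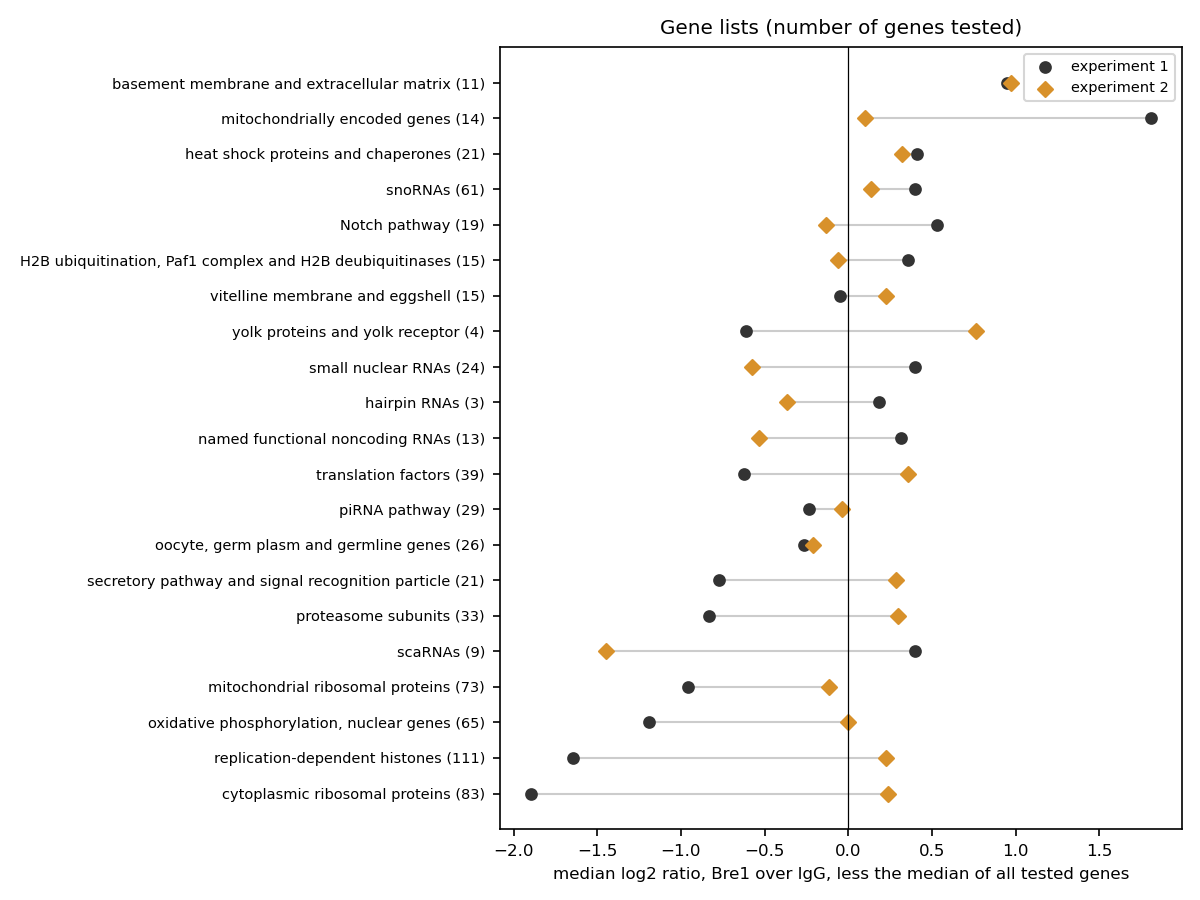
Median log2 ratio of Bre1 over IgG for each gene list, less the median of all tested genes, in experiment 1 (circles) and experiment 2 (diamonds), with the number of tested genes in brackets. The basement membrane list lies at 0.95 and 0.97, and ribosomal proteins lie at -1.90 and 0.24.

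The ratio moved with exon length, mostly in experiment 1. Across the 6687 genes its Spearman correlation with the level in the IgG library was -0.37 in experiment 1 and -0.22 in experiment 2. These genes share libraries and depth. The IgG level is also the denominator of the ratio, so its noise alone can give a negative correlation, and no conclusion is drawn from it. Among protein-coding genes the median ratio in experiment 1 was -1.26 for 949 genes with under 1000 bases of exon and 0.62 for 298 genes over 8000 bases. In experiment 2 the same medians were -0.39 and -0.17. The 647 coding genes above 0 in both experiments had a median exon length of 3848 bases, the 3451 below 0 in both 1729 bases, and all 6496 tested coding genes 2153 bases. Removing the trend on exon length kept the sign of the 24 ranked genes in both experiments, but in experiment 1 the ratio was then 0.06 for LanB1, 0.12 for alpha-Spec, 0.61 for dec-1 and 0.64 for trol. The ratio of experiment 1 turned negative for LanA (-0.77), LanB2 (-0.07), ndl (-0.02), mib1 (-0.21) and Dl (-0.45). The removal left 102 genes at or below -1 in both, against 130 (1.94%) with the trend in place. At or above 1 in both were 5 genes (0.0748%): mt:srRNA, mt:lrRNA, RpLP2, Col4a1 and snRNA:U2:14B. Of the 130 lower genes 122 (93.8%) were protein-coding, against 97.1% of all tested genes, and 54 had under 1000 bases of exon. Among the coding ones 40.2% had under 1000 bases, against 14.6% of all tested coding genes. As library totals in experiment 2, introns took 1.66% of the reads of tested coding genes with Bre1 and 7.30% with IgG. In the IgG library the share was 6.06% for genes above 0 in both experiments and 7.25% for genes below 0 in both. The part of depth and intron reads in the differences named above was not tested.

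**Figure D5:**
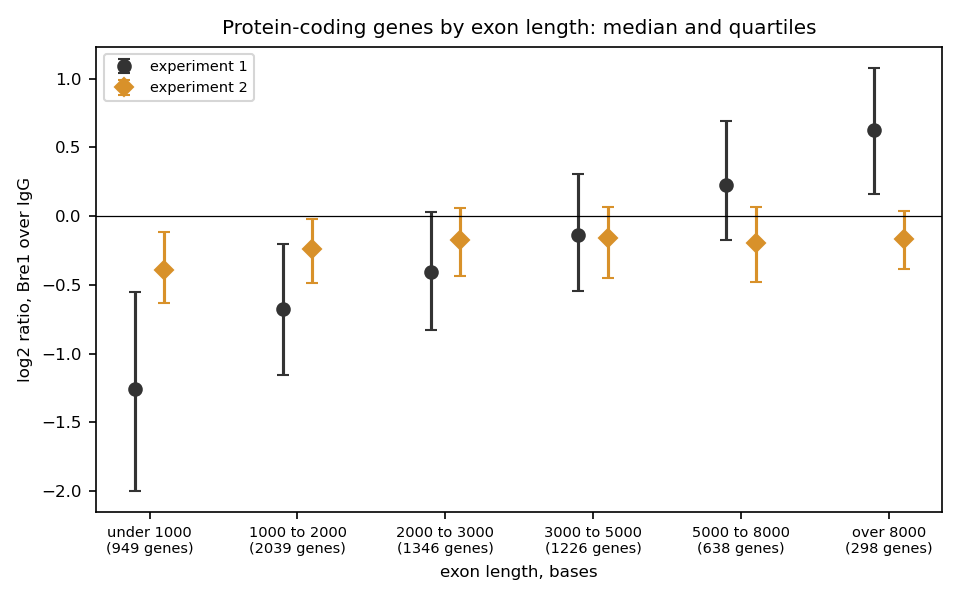
Log2 ratio of Bre1 over IgG for protein-coding genes in 6 classes of exon length, as median (symbol) and quartiles (bars), with circles for experiment 1 and diamonds for experiment 2. The median of experiment 1 runs between -1.26 under 1000 bases and 0.62 over 8000 bases, and that of experiment 2 between -0.39 and -0.16.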

How the data were processed

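RNA-seq libraries of Bre1 RIP and IgG RIP from 2 experiments were compared. The Lsd1 RIP libraries entered the scaling, the filter on low values and the shared estimate of spread. Their ratios over IgG are given for the ranked genes and some others. Libraries were made without selection for polyadenylated RNA with an unstranded kit, so overlapping or antisense genes are not separable. Experiment 1 was deposited as FPKM per transcript, with the columns of a Cufflinks table per the file headers, and FPKM was summed per gene. Experiment 2 was deposited as RPKM per gene beside read counts, per the file headers; their program is not stated there or in the labels. The submitters' processing notes name build dm6 and the tools Cufflinks, SAMtools 0.1.18.0, TopHat and Bowtie2 2.0.6.0. Levels of the 2 experiments are in different units, and only ratios within an experiment were taken.

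Genes were joined by FlyBase identifier (17021) or symbol (80). After leaving out 31 genes whose FPKM was not estimated in a library of experiment 1, 17070 were used; 16974 were found in the reference gene table, with 99.3% at the same start and end. Scaling used the median ratio of 1028 genes that reached 1 in each of the 6 libraries, and 1 was added before taking log2. Fold changes of low genes are therefore understated, and a library listed at 0 gives a ratio set by the added 1. Fragments of experiment 1 were recovered from the confidence limits of the FPKM or modelled where a gene has several transcripts; 83.7% (Bre1) and 85.3% (IgG) of low single-transcript values were whole within 0.05.

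limma 3.58.1 in R 4.3.3 fitted antibody and experiment over all 6 libraries, with a mean-variance trend, 2 residual degrees of freedom and 119 prior ones, so that a gene's SE comes mostly from genes of like level. Adjusted p is by Benjamini-Hochberg over 6687 genes. Experiment is a block because the labels state a shared lysate; the deviation of each library's values about its antibody's mean had a correlation of 0.51 (Bre1 with IgG), 0.47 (Lsd1 with IgG) and 0.11 (Bre1 with Lsd1), over 2 pairs. On simulated data of 6687 genes, limma recovered 0 of 200 changes of 1 on the log2 scale, 67 of 200 of size 2 and 192 of 200 of size 4. edgeR 4.0.16 and DESeq2 1.42.0 on the recovered fragments and read counts were alternatives, with no replicate block, other pseudocounts, filters and scalings, removal of the length trend and leaving out each library; centring on the median and a minimum of 20 fragments or reads were chosen after seeing the data.

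Named genes were the 12 per direction with the largest smaller ratio, the called genes, Bre1 and genes of its pathways used in the text, and up to 4 per list at both ends of the smaller ratio. The members and lists were chosen with earlier results of these data known.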

Additional observations from a re-analysis of the deposited data

How the results depend on the processing

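No gene was called without the replicate block (0, with experiment left out of the fit), with only the 4 Bre1 and IgG libraries (0), a pseudocount of 0.1 (0), no filter on low values (0), values as deposited (0), quantile normalization (0), upper quartile scaling (0), no mean-variance trend (0), the length trend removed (0) or edgeR (0), against 2 in the analysis reported. A pseudocount of 5 gave 1 call, DESeq2 1 and a minimum value of 5 gave 5. Leaving out 1 library gave between 0 and 50 calls. Genes at or above 1 in both experiments numbered 5, and were 8 with a pseudocount of 0.1, 2 as deposited, 25 with quantile normalization, 18 with upper quartile scaling and 10 less the median of all tested genes, which was chosen after seeing the data. Genes at or below -1 in both numbered 130, and 527, 1515, 64, 29 and 41 in the same order, with 11 for a pseudocount of 5. These counts need both antibodies in both experiments and could not be had without a Bre1 or IgG library, nor with edgeR or DESeq2.

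The direction of 25 of 66 named genes turned negative in the values as deposited, to which no scaling is applied: dec-1 (-0.047), eIF3a (-0.30), alpha-Spec (-0.18), LanB1 (-0.18), LanA (-0.39), LanB2 (-0.20), PH4alphaEFB (-0.37), CG30122 (-0.093), Ctr9 (-0.54), Bre1 (-0.61), N (-0.54), mib1 (-0.62), mt:Cyt-b (-0.054), RpL22 (-1.15), mRpS31 (-0.84), eIF5B (-0.22), Rpn2 (-0.56), ND-75 (-0.51), ndl (-0.12), yl (-0.62), tral (-0.84), Hsp70Ab (-0.69), Tango1 (-0.46), snRNA:7SK (-0.69) and RNaseMRP:RNA (-0.59). Of the named genes with a positive fitted change in the analysis reported, only these stayed positive as deposited: mt:srRNA, mt:lrRNA, RpLP2, Col4a1, snRNA:U2:14B, snRNA:U2:34ABa, trol, Ppn and Mp. The remaining named genes had a negative fitted change already. Quantile normalization turned Dl (0.022) and snRNA:7SK (-0.11), upper quartile scaling Dl (0.059), edgeR Rtf1 (0.0079), DESeq2 snoRNA:Psi18S-531 (0.25) and unique reads snRNA:U2:14B (-2.58).

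Leaving out 1 library, fitted changes that turned ranged between -5.41 and 0.060 for dhd, -4.22 and 0.20 for osk, -2.11 and 0.076 for CG13741, -0.56 and 3.01 for mt:Cyt-b, -0.96 and 1.31 for RpL22, -0.12 and 0.54 for mRpS31, -0.40 and 1.72 for snRNA:7SK, -0.67 and 2.10 for RNaseMRP:RNA, -0.63 and 0.014 for Rtf1, -0.29 and 1.14 for Bre1, -0.33 and 1.37 for N, and -0.89 and 0.36 for Dl. The cause was not tested. Experiment 1 is limited by the 209234 fragments of its Bre1 library, where a short or low mRNA has a handful of fragments or 0.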
